A study of Mus musculus with 49 samples.

Results

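Rosiglitazone is an antidiabetic thiazolidinedione that binds and activates PPARG, the nuclear receptor that drives fat cell formation. The response described here is that of epididymal white fat of C57BL/6 (C57) mice, read from 8 RNA-seq libraries of the 49 samples in the series: 4 from mice on control diet and 4 from mice on the drug. The members were taken by their labels, as the C57 libraries of the drug experiment. This part of the series and the gene lists were chosen with earlier results of these data known. All mice of the experiment ate a low fat diet for 10 weeks, from 6 to 16 weeks of age. For the final 2 weeks, until 18 weeks of age, the rosiglitazone group ate that diet with 36 mg of the drug per kg of diet, and the control group ate it without. The labels name no genetic change, and no source used here says whether a library came from 1 animal or from a pool, so the p-values measure the spread between these libraries. The same experiment in 129S1/SvImJ mice, again 4 control and 4 rosiglitazone libraries, enters the fit and serves for comparison.

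PPARG binds DNA together with a retinoid X receptor and switches on genes by which fat cells take up, bind, activate, store and burn fatty acids. In white fat its agonists are known for raising lipid storage genes, for raising mitochondrial genes, and for giving some depots features of brown fat, the heat-producing tissue that carries the uncoupling protein Ucp1. Sterol synthesis is governed by another set of factors, the SREBP proteins, which Insig1 holds back when sterols are plentiful.

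The deposited values are whole numbers with a floor of 1 that share their highest steps in every library, so the read depth behind them is unknown. Whether they were scaled to transcript length is not stated. Levels are therefore compared within a gene and not between genes. All fold changes are on the log2(value + 1) scale, which understates the change of genes near the floor. A gene was called, and is said to rise or fall, where its limma adjusted p was under 0.05. The tissue label matched the markers: Adipoq, the fat cell hormone adiponectin, read 18383, 13828, 15186 and 15186 in the control libraries and 17219, 13828, 16066 and 18383 in the rosiglitazone libraries, and the 14 epididymis markers summed to 15 to 24 per library, with 5 of them at the floor in all 8 libraries. Correlation between libraries was 0.9698 to 0.9814 within the control group and 0.9838 to 0.9867 within the rosiglitazone group. Between control and rosiglitazone libraries it was 0.9725 to 0.9842, a range no lower than that within the control group.

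After 2 weeks on the drug, genes for burning fatty acids, building triglyceride and making sterols were among those higher in C57 fat. Of the lipid droplet genes 5 of 14 rose, and the main coat gene Plin1 did not. Genes of basement membrane collagen and several secreted proteins were lower. Of 22869 genes, 351 rose (1.53%) and 207 fell (0.905%), together 558 or 2.44%. 65 rose and 41 fell by more than 1 on the log2 scale. The median log2 fold change over all genes was 0, so the lists are read against a median of 0. All 4 rosiglitazone libraries lay above all 4 control libraries for 805 genes (3.52%) and below them for 562 genes (2.46%). The count of calls rests on the spread that the C57 and 129S1/SvImJ libraries share. Fitted on the 8 C57 libraries alone, 73 genes passed, 49 higher and 24 lower. In that fit the fatty acid oxidation, sterol, triglyceride synthesis, lipid droplet and respiratory chain lists described below each held 1 increase. The matrix and adipokine lists held 0 decreases there. The count of calls also moved with single libraries, to 353 without control library 2, 327 without rosiglitazone library 3 and 275 without rosiglitazone library 4.

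**Figure D1:**
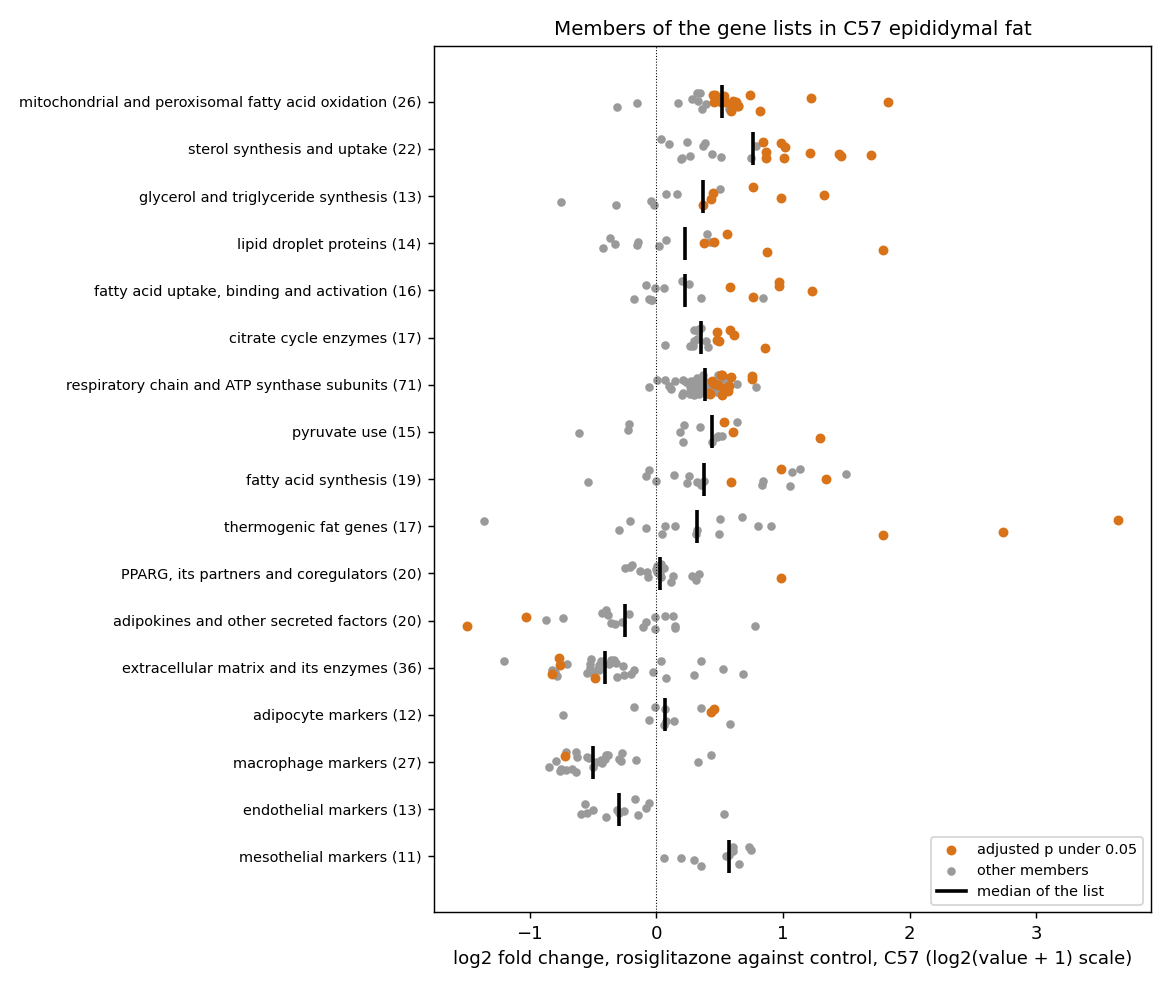
Log2 fold changes of the members of 17 gene lists (rows, with the number of members in brackets) in C57 epididymal fat, rosiglitazone against control; orange points passed adjusted p under 0.05, grey points did not, and the black bar is the list's median. Fatty acid oxidation (median 0.52) and sterol genes (0.77) lie to the right of 0, and matrix genes (-0.41) and macrophage markers (-0.50) to the left.

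The drug's receptor itself did not pass the test. Pparg read 868, 926, 853 and 1001 in the control libraries and 831, 871, 1050 and 978 in the rosiglitazone libraries, and the groups overlapped (log2 fold change 0.03 ± 0.10, SE, adjusted p 0.987). Rxra, the retinoid X receptor that pairs with it, read 1249, 1175, 1240 and 1276 in the control libraries and 1211, 1182, 1293 and 1268 in the rosiglitazone libraries, which also overlapped (0.00 ± 0.08). Of the 20 members of the list of PPARG, its partners and coregulators, 1 rose and 0 fell, with a median of 0.03. That member was Ppargc1b, a coactivator of mitochondrial genes, which rose by 0.99 ± 0.24 on the log2 scale (adjusted p 0.0333) with 1 rosiglitazone library at the level of the highest control, and the call was kept in 2 of the 8 fits that leave out 1 C57 library. Its relative Ppargc1a had 0.31 ± 0.26, and the fat cell factor Cebpa had 0.13 ± 0.08.

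The largest increases were those of genes with low control values. Sptlc3, a subunit of serine palmitoyltransferase, the first enzyme of sphingolipid synthesis, read 4, 1, 4 and 4 in the control libraries and 115, 59, 70 and 39 in the rosiglitazone libraries. The groups were far apart, and Sptlc3 rose by 4.07 ± 0.34 on the log2 scale (adjusted p 9.55e-07). Otop1, a proton channel enriched in brown fat, read 12, 9, 5 and 5 in the control libraries and 51, 127, 125 and 136 in the rosiglitazone libraries and rose by 3.65 ± 0.46 (adjusted p 0.000444). Elovl3, a fatty acid elongase of brown fat, read 2, 4, 5 and 3 in the control libraries and 14, 46, 41 and 23 in the rosiglitazone libraries and rose by 2.74 ± 0.42 (adjusted p 0.00085). All 4 rosiglitazone libraries were above all controls for these 3 genes, which the choice required. The 12 largest increases and the 12 largest decreases were taken only from called genes whose groups did not overlap.

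Further large increases came from genes of varied function. Gys2, the liver form of glycogen synthase, read 44, 52, 85 and 33 in the control libraries and 150, 226, 236 and 303 in the rosiglitazone libraries (2.12 ± 0.39, adjusted p 0.00995). Clstn3, a calsyntenin, read 68, 90, 82 and 83 in the control libraries and 387, 228, 300 and 335 in the rosiglitazone libraries (1.92 ± 0.21, adjusted p 3.82e-05). Chchd10, a protein of the mitochondrial intermembrane space, read 68, 66, 72 and 82 in the control libraries and 429, 160, 250 and 277 in the rosiglitazone libraries, with rosiglitazone library 1 the highest (1.86 ± 0.23, adjusted p 0.000194). Egln3, a prolyl hydroxylase that marks hypoxia-inducible factor for breakdown, rose by 1.67 ± 0.30 and Arxes1, an adipocyte gene of the X chromosome, by 1.88 ± 0.17. Arxes1 has a near-identical neighbour, so its reads may be shared between copies. The interferon-inducible Gbp10, also from a family of close copies, rose by 1.68 ± 0.42, but its call was lost in each of the 8 fits that leave out 1 C57 library. Of the 12 largest increases, 11 kept their call in all 8 of those fits and 7 passed in the C57 libraries alone.

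The PPAR response element is a direct repeat of AGGTCA with 1 base between the copies. In RefSeq promoters (GRCm38.p6, 250 bases before to 50 after each start), searched on both strands, the exact repeat occurred in 13 of 32851 promoters (0.0396%) and in none of those matched for the 12 largest increases, the 12 largest decreases or 22 well-known PPARG targets and fat cell genes. A single AGGTCA occurred in 16.3% of all promoters, in 2 of the 8 promoters found for 7 of the 12 largest increases and in 2 of the 13 found for 10 of the 12 largest decreases. For the 22 well-known genes, 7 of 20 promoters of 15 genes held it. These 7 belonged to 5 genes, and the same Aqp7 site lay in more than 1 promoter. These counts describe letters in the windows and not binding. To show where the motif lies in called genes, 60 bases around it are printed for 4 of them, 5′ to 3′ on the gene's strand, with AGGTCA or its reverse complement in capitals. Chchd10 (chr10:75932991-75933050) and Insig1 (chr5:28071280-28071339) were among the largest increases and lie on the plus strand. C6 (chr15:4727143-4727202, plus strand), a complement component, was among the largest decreases, and Aqp7 (chr4:41048153-41048212, minus strand) encodes the glycerol channel of fat cells, which rose.
Chchd10: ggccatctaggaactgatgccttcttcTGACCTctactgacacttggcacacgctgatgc
Insig1: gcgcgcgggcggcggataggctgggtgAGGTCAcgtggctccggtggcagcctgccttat
C6: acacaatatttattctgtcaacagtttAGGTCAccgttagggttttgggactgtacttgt
Aqp7: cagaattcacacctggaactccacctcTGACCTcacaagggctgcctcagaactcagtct

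**Figure D2:**
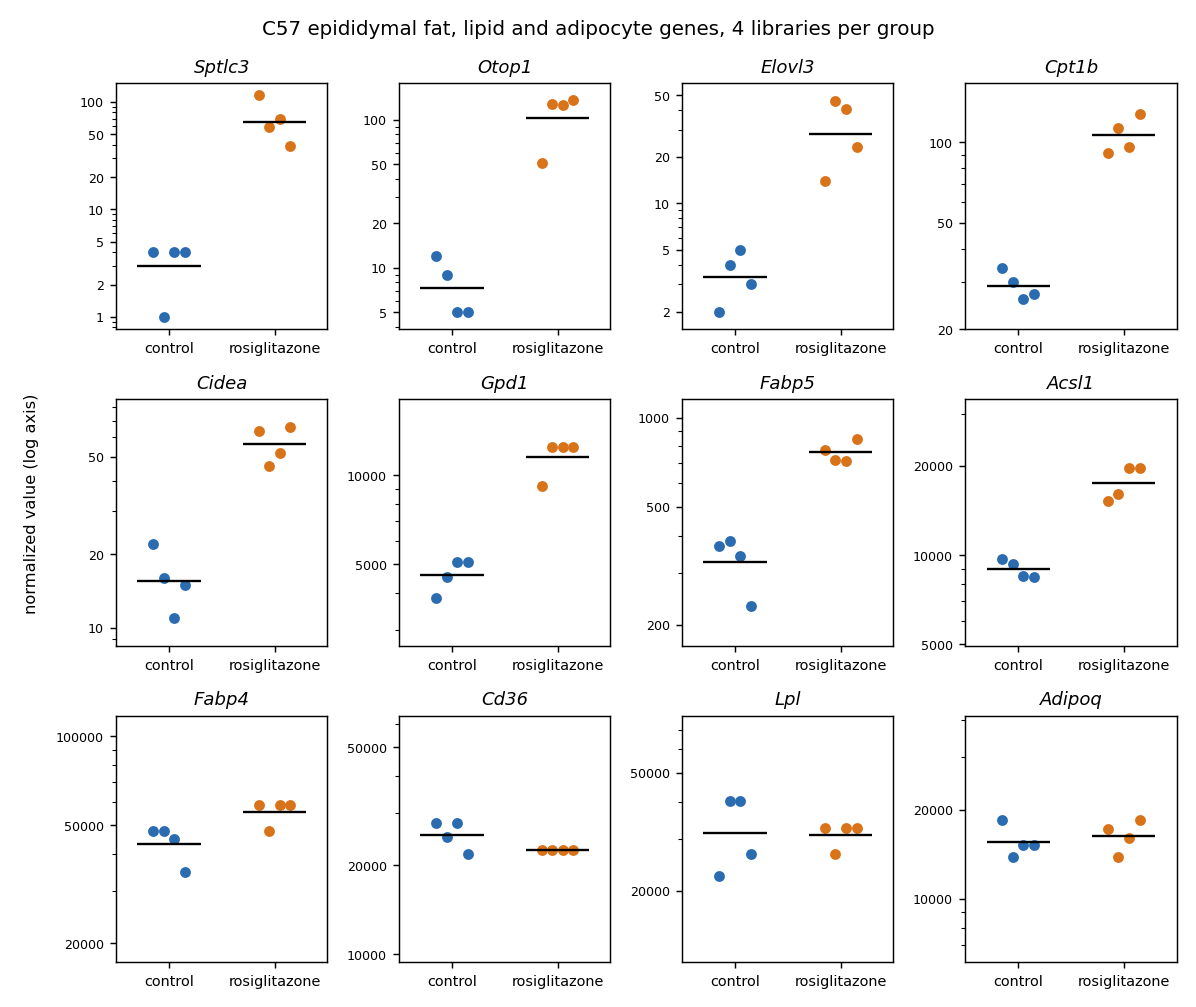
Normalized values (log axes) of 12 lipid and adipocyte genes in the 4 control (blue) and 4 rosiglitazone (orange) C57 libraries; each point is a library and the bar is the mean on the log2(value + 1) scale. Sptlc3, Otop1, Elovl3, Cpt1b, Cidea, Gpd1, Fabp5 and Acsl1 do not overlap between groups, while Fabp4, Cd36, Lpl and Adipoq do. Sptlc3, Otop1, Elovl3, Cpt1b and Cidea are among the largest increases, which were chosen for no overlap.

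Genes that bring fatty acids into the cell and activate them rose in part. Of the 16 members of the list of fatty acid uptake, binding and activation, 5 rose and 0 fell, with a median of 0.23. Acsl1, the main enzyme that couples fatty acids to coenzyme A in fat cells, read 9671, 9311, 8490 and 8426 in the control libraries and 15186, 16066, 19711 and 19711 in the rosiglitazone libraries, and all drug values were above all control values. Acsl1 rose by 0.97 ± 0.13 on the log2 scale (adjusted p 0.000148). Fabp5, a fatty acid binding protein of the cytosol, read 369, 382, 342 and 231 in the control libraries and 779, 717, 714 and 848 in the rosiglitazone libraries and rose by 1.23 ± 0.18 (adjusted p 0.000674). Acsl3, the fatty acid transport protein Slc27a4 and its relative Slc27a1 rose by 0.76 ± 0.15, 0.58 ± 0.09 and 0.97 ± 0.23. Slc27a1 was highest in rosiglitazone library 1, at 7258 against 3081 to 4293 in the other rosiglitazone libraries, and kept its call in 4 of the 8 fits without 1 C57 library.

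Several genes widely used as readouts of PPARG agonists did not pass. Fabp4, the main fatty acid binding protein of fat cells, read 47712, 47712, 44852 and 34653 in the control libraries and 58431, 47712, 58431 and 58431 in the rosiglitazone libraries (0.36 ± 0.12, adjusted p 0.118), with the second rosiglitazone library at the level of 2 controls. Cd36, a fatty acid receptor, read 27695, 24828, 27695 and 21731 in the control libraries and 22517, 22517, 22517 and 22517 in the rosiglitazone libraries (-0.17 ± 0.08, adjusted p 0.342). Lpl, the lipase that frees fatty acids from lipoproteins, read 22383, 40086, 40086 and 26525 in the control libraries and 32609, 26525, 32609 and 32609 in the rosiglitazone libraries (-0.01 ± 0.19). These 3 genes sit among the highest steps of the shared distribution, where a value can move only to another step. For them the authors' deposited table gave log2 fold changes of 0.46, 0.17 and 0.37, so the direction for Cd36 and Lpl differed between that table and the values used here. The deposited p-values, from a test the labels do not name, were 0.00548 for Fabp4, 0.306 for Cd36 and 0.0135 for Lpl. Not passing here is thus a result of the limma fit on these stepped values. Angptl4, an inhibitor of lipoprotein lipase, read 3319, 2682, 2911 and 2942 in the control libraries and 3319, 2552, 2702 and 3060 in the rosiglitazone libraries (-0.03 ± 0.14). Fabp3, the heart form, stayed near the floor at 1, 2, 3 and 1 in the control libraries and 4, 3, 4 and 4 in the rosiglitazone libraries (0.85 ± 0.36, adjusted p 0.286).

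Genes that make glycerol phosphate and assemble triglyceride gave 6 increases and 0 decreases among 13 members, with a median of 0.37. Gpd1, which makes glycerol 3-phosphate from a glycolysis intermediate, read 3853, 4519, 5081 and 5081 in the control libraries and 9191, 12430, 12430 and 12430 in the rosiglitazone libraries. The 3 highest drug libraries share 1 step of the distribution, and Gpd1 rose by 1.32 ± 0.12 on the log2 scale (adjusted p 2.19e-06). Agpat9, the acyltransferase GPAT3, read 759, 598, 552 and 531 in the control libraries and 1185, 1048, 1261 and 1316 in the rosiglitazone libraries and rose by 0.99 ± 0.15 (adjusted p 0.000644). Agpat2, which acts in the next step of the pathway, read 1154, 1037, 1194 and 1268 in the control libraries and 1861, 1574, 2317 and 2208 in the rosiglitazone libraries and rose by 0.76 ± 0.12 (adjusted p 0.00119). Smaller increases were those of Agpat3 (0.44 ± 0.10), Aqp7 (0.43 ± 0.10, adjusted p 0.0183) and Dgat1, the last step of triglyceride synthesis (0.37 ± 0.09). Pck1, the enzyme of glyceroneogenesis, read 15186, 17219, 12665 and 23240 in the control libraries and 18383, 13106, 11318 and 11674 in the rosiglitazone libraries and did not pass (-0.32 ± 0.19, adjusted p 0.499). Glycerol kinase, listed as Gyk, had 0.50 ± 0.16 (adjusted p 0.107), and Dgat2 had -0.02 ± 0.13. Without control library 3 or without rosiglitazone library 4 the list had 3 increases instead of 6. Of the 8 fits that leave out 1 C57 library, the call of Agpat3 in 3, Aqp7 in 5 and Dgat1 in 2 held, and those of Gpd1, Agpat9 and Agpat2 in all 8.

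The lipid droplet list showed 5 increases and 0 decreases among 14 members, with a median of 0.23. Cidea, a droplet fusion protein typical of brown fat, read 22, 16, 11 and 15 in the control libraries and 64, 46, 52 and 66 in the rosiglitazone libraries and rose by 1.79 ± 0.22 (adjusted p 7.74e-05). Cidec, which enlarges the single droplet of white fat cells, read 21335, 21335, 19711 and 22651 in the control libraries and 28917, 30692, 30692 and 26525 in the rosiglitazone libraries and rose by 0.46 ± 0.09 (adjusted p 0.00491), where the authors' deposited table gave 0.70. Plin5, which links droplets to mitochondria, rose by 0.87 ± 0.23, Abhd5, the coactivator of the first lipase of triglyceride breakdown, by 0.56 ± 0.14, and Fitm2, which helps droplets bud from the endoplasmic reticulum, by 0.38 ± 0.09. The calls of these 3 were kept in few of the 8 fits without 1 C57 library, Plin5 in 1, Abhd5 in 2 and Fitm2 in 3. Plin1, the main droplet coat protein of fat cells, had 0.08 ± 0.11 and Plin4 had -0.37 ± 0.11 (adjusted p 0.0911). The list held 2 increases without control library 2, rosiglitazone library 3 or rosiglitazone library 4, and 3 without control library 3 or rosiglitazone library 1. Among 14 genes of lipolysis and its receptors 1 rose, Mgll, the lipase for monoglycerides, by 0.29 ± 0.08 (adjusted p 0.0422), and it kept its call in 1 of the 8 fits without 1 C57 library. Hormone-sensitive lipase, Lipe, had 0.14 ± 0.10 and Pnpla2 had 0.59 ± 0.27.

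Fatty acid oxidation was the list with the largest share of increases, 16 of 26 members and 0 decreases, with a median of 0.52. Fitted on the 8 C57 libraries alone, the list held 1 increase. Cpt1b, the muscle form of the enzyme that commits fatty acids to mitochondria, read 34, 30, 26 and 27 in the control libraries and 91, 113, 96 and 128 in the rosiglitazone libraries and rose by 1.83 ± 0.27 (adjusted p 0.00106). Hadha, a subunit of the mitochondrial trifunctional protein, read 1022, 1104, 1073 and 1139 in the control libraries and 2021, 1462, 1579 and 1709 in the rosiglitazone libraries and rose by 0.63 ± 0.12. Etfb, which passes electrons from fatty acid dehydrogenases, rose by 0.82 ± 0.13 and the short-chain dehydrogenase Acads by 0.64 ± 0.13. The peroxisomal thiolase Acaa1b rose by 1.22 ± 0.22, but its reads may be shared with its close copy Acaa1a (0.34 ± 0.12). The liver form Cpt1a, in contrast, read 718, 664, 798 and 455 in the control libraries and 490, 561, 480 and 550 in the rosiglitazone libraries (-0.31 ± 0.13, adjusted p 0.28). Rosiglitazone library 1 held the highest value of all 8 libraries for 22 of the 26 genes, and the list held 8 increases without it, 8 without control library 2 and 9 without rosiglitazone library 4.

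Other mitochondrial lists had smaller medians than fatty acid oxidation. Citrate cycle enzymes gave 6 increases of 17, and all 17 members had positive fold changes, with a median of 0.35. The largest was that of Idh3a, a subunit of isocitrate dehydrogenase, which read 738, 694, 695 and 699 in the control libraries and 1155, 1112, 1433 and 1460 in the rosiglitazone libraries (0.86 ± 0.12, adjusted p 0.000212). Malate dehydrogenase Mdh2 rose by 0.61 ± 0.12 and citrate synthase Cs by 0.59 ± 0.12. The citrate cycle count was 3 without control library 2 or without rosiglitazone library 1, 3 or 4, and 10 without rosiglitazone library 2. Of 71 respiratory chain and ATP synthase subunits, 15 rose, 0 fell and 70 had a positive fold change, with a median of 0.38 and a range of -0.06 to 0.79. Ndufb3 and Ndufa10 of complex I rose by 0.59 ± 0.13 and 0.57 ± 0.12, and Cox5b and Cox4i1 of cytochrome oxidase by 0.75 ± 0.17 and 0.44 ± 0.11. Rosiglitazone library 1 held the highest value for 31 of the 71. The count of 15 ranged from 1 to 29 when a C57 library was left out. It was 1 without control library 3, rosiglitazone library 1 or rosiglitazone library 4, 2 without control library 2, 5 without rosiglitazone library 3, 7 without control library 1, 23 without control library 4 and 29 without rosiglitazone library 2. Of 76 mitochondrial ribosomal proteins, 3 rose and 73 had a positive fold change, with a median of 0.26. That count was 1 without control library 1 or 2 or rosiglitazone library 3 or 4, and 6 without control library 4.

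Genes that steer pyruvate showed 3 increases of 15. Pdk4, the kinase that shuts pyruvate dehydrogenase, read 548, 344, 354 and 455 in the control libraries and 1798, 767, 797 and 1003 in the rosiglitazone libraries, again highest in rosiglitazone library 1 (1.29 ± 0.25, adjusted p 0.0117). Dlat and Pdhx, 2 subunits of the dehydrogenase complex, rose by 0.60 ± 0.14 and 0.54 ± 0.11. The list count was 1 without control library 2 or rosiglitazone library 4, and 5 without control library 4 or rosiglitazone library 2. Cat, the peroxisomal catalase, rose by 0.60 ± 0.10 (adjusted p 0.0022), and Gstm1, a glutathione transferase, fell by 0.60 ± 0.14 (adjusted p 0.0249), the 2 calls among 24 glutathione and antioxidant genes. Fits without 1 C57 library kept the call of Dlat in 4, Pdhx in 6 and Gstm1 in 4 of 8. Nnt, the mitochondrial transhydrogenase that makes NADPH, read 117, 111, 105 and 142 in the control libraries and 82, 84, 92 and 85 in the rosiglitazone libraries and fell by 0.46 ± 0.11 (adjusted p 0.0282), a call kept in 4 of those 8 fits.

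Some genes of brown fat rose, without Ucp1. Among 17 thermogenic genes, 3 rose, Otop1, Elovl3 and Cidea, where 1.53% of all genes rose. A positive fold change was seen for 13 and a negative one for 4, and the median was 0.32. The lowest was that of Cpn2 (-1.36), which did not pass. At an unadjusted p under 0.05 by limma, 8 genes held, counted in either direction. The summed level of the 17 genes was 377 to 506 in the control libraries and 582 to 638 in the rosiglitazone libraries. The median was 0.59 without control library 3 and 0.49 without rosiglitazone library 2, with the count at 3 in each. Ucp1 itself stayed near the floor, at 4, 4, 4 and 3 in the control libraries and 4, 5, 3 and 4 in the rosiglitazone libraries (0.07 ± 0.53). Dio2, which activates thyroid hormone in brown fat, read 3, 1, 5 and 3 in the control libraries and 6, 7, 5 and 6 in the rosiglitazone libraries (0.90 ± 0.41, adjusted p 0.316). Cox8b had 0.80 ± 0.35 (adjusted p 0.315) and Cox7a1 0.05 ± 0.34. In 129S1/SvImJ fat, Ucp1 read 4, 14, 59 and 9 in the control libraries and 241, 481, 245 and 680 in the rosiglitazone libraries (4.68 ± 0.53). The C57 response of Ucp1 minus that of 129S1/SvImJ was -4.62 ± 0.75 (adjusted p 0.0157), a call kept in 13 of the 16 fits without 1 library.

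Sterol synthesis and uptake gave 10 increases of 22 and 0 decreases, with a median of 0.77, and all 22 members had a positive fold change. Insig1, the sterol-sensing anchor of SREBP, read 643, 482, 879 and 434 in the control libraries and 1355, 1455, 2864 and 2302 in the rosiglitazone libraries and rose by 1.69 ± 0.24 (adjusted p 0.00104). Lss, lanosterol synthase, read 121, 107, 148 and 167 in the control libraries and 313, 325, 424 and 417 in the rosiglitazone libraries and rose by 1.45 ± 0.17 (adjusted p 3.98e-05). All drug values lay above all control values for both genes. In the later steps from lanosterol to cholesterol, Cyp51 rose by 1.02 ± 0.16, Nsdhl by 1.21 ± 0.20, Hsd17b7 by 0.84 ± 0.20 and Dhcr7 by 0.99 ± 0.25. In the mevalonate steps before squalene, Pmvk rose by 0.87 ± 0.18, Mvd by 0.87 ± 0.22 and Fdps by 1.01 ± 0.27. Srebf2, which encodes the SREBP of the sterol genes, did not pass (0.37 ± 0.12, adjusted p 0.14). Insig1, Lss, Nsdhl and Cyp51 kept their calls in all 8 fits without 1 C57 library, and Pmvk in 7, Mvd in 3, Fdps in 3, Hsd17b7 in 2 and Dhcr7 in 2. The list held 6 increases without control library 2 or rosiglitazone library 3 and 5 without rosiglitazone library 4.

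Some sterol genes responded differently in C57 and 129S1/SvImJ fat. In 129S1/SvImJ the list's median was -0.05, with 0 increases and 2 decreases. The difference between the responses was itself called for 48 genes in all (0.21%), 31 with the C57 value above the 129S1/SvImJ value and 17 below. Of the 22 sterol genes, 4 were among them. Nsdhl went from 258, 226, 402 and 205 to 200, 199, 148 and 227 in 129S1/SvImJ (-0.46 ± 0.20, adjusted p 0.236), a difference between the responses of 1.67 ± 0.29 (adjusted p 0.0157). The differences were 1.13 ± 0.24 for Lss (adjusted p 0.0494) and 0.99 ± 0.20 for Sc5d (adjusted p 0.0404). Leaving out 1 of the 16 libraries kept the call in 15 fits for Nsdhl, 5 for Lss and 5 for Sc5d. Lss read 121, 107, 148 and 167 in C57 controls and 246, 192, 335 and 227 in 129S1/SvImJ controls, against 313, 325, 424 and 417 and 297, 326, 246 and 365 on the drug. The control levels of the strains were not tested.

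**Figure D3:**
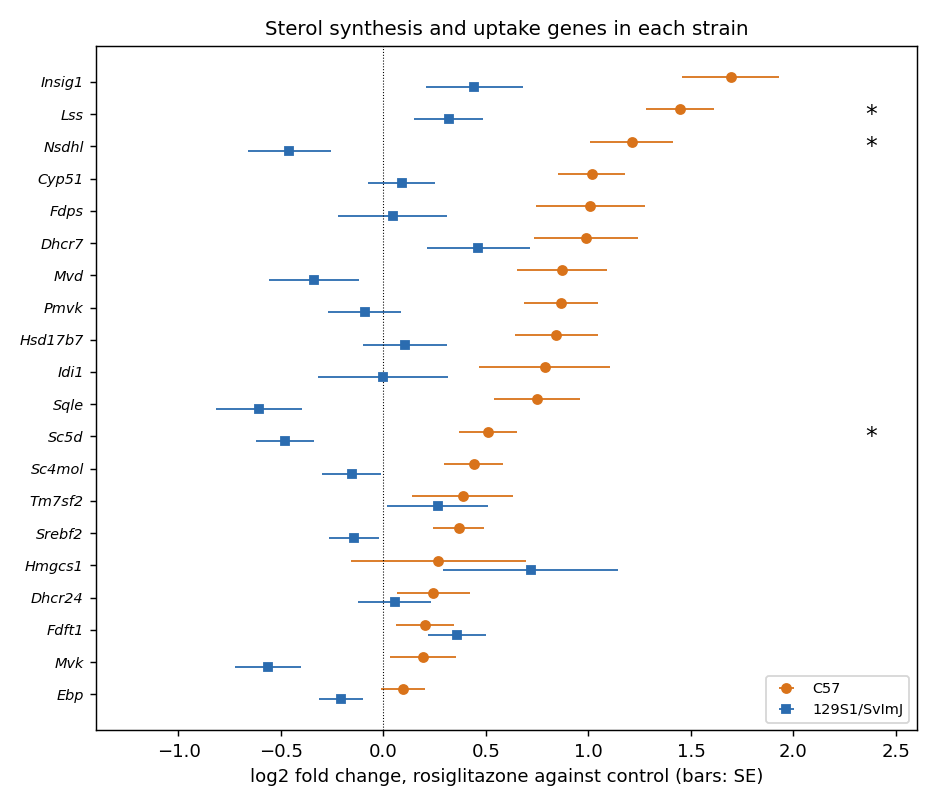
Log2 fold changes (rosiglitazone against control, with SE bars) of 20 sterol synthesis and uptake genes in C57 (orange circles) and 129S1/SvImJ (blue squares) epididymal fat, 4 libraries per group; asterisks mark the 3 genes drawn whose responses differed at adjusted p under 0.05. The C57 values are all positive, from 0.10 (Ebp) to 1.69 (Insig1), and the 129S1/SvImJ values lie on both sides of 0.

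Among the storage genes, Gpd1 also differed between strains. In 129S1/SvImJ it went from 8426, 7258, 9909 and 8635 to 10236, 11318, 9909 and 12430 (0.36 ± 0.12, adjusted p 0.0835), and the C57 response was larger by 0.96 ± 0.17 (adjusted p 0.0157), kept in 15 of 16 fits without 1 library. For fatty acid oxidation the median was 0.52 in C57 and 0.995 in 129S1/SvImJ, with 16 and 22 increases, and the difference was called for 0 of the 26 members by limma. At an unadjusted p under 0.05 the difference held for 20 of them, and over all genes for 2268 of 22869. The smallest adjusted p was 0.0523, for Etfa, which passes electrons from fatty acid dehydrogenases together with Etfb.

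Fatty acid synthesis showed 3 increases of 19 with a median of 0.38. They were Me1, malic enzyme, which read 604, 818, 1032 and 971 in the control libraries and 1943, 1852, 2302 and 2448 in the rosiglitazone libraries (1.34 ± 0.26, adjusted p 0.0111), Slc25a1, the mitochondrial citrate carrier (0.99 ± 0.19, adjusted p 0.00668), and G6pdx, the first enzyme of the pentose phosphate pathway (0.59 ± 0.10, adjusted p 0.00203). Fasn, fatty acid synthase, read 8131, 34653, 22134 and 37581 in the control libraries and 47712, 44852, 44852 and 47712 in the rosiglitazone libraries. Control library 1 was far below the other controls, and the fold change of 1.07 ± 0.42 (adjusted p 0.251) was 0.59 ± 0.27 without it (adjusted p 0.345). Acly, ATP citrate lyase, read 906, 2596, 2344 and 4832 in the control libraries and 3845, 4519, 5465 and 5301 in the rosiglitazone libraries, with the same library lowest (1.06 ± 0.44, adjusted p 0.297, and 0.62 ± 0.35 without that library). Acss2, which makes acetyl-CoA from acetate, read 321, 619, 753 and 997 in the control libraries and 1821, 1288, 2122 and 1908 in the rosiglitazone libraries and did not pass (adjusted p 0.083), nor did the desaturase Scd2 (1.13 ± 0.35, adjusted p 0.133). Scd1 held the top step of the distribution, 231290, in all 8 libraries, so no change in it could be measured. In 129S1/SvImJ the list's median was -0.52, with 0 increases and 3 decreases. The difference between the responses was called by limma for 0 of the 19 members, with the smallest adjusted p 0.0971 for Scd2. At an unadjusted p under 0.05 it held for 12 of them, and over all genes for 2268 of 22869.

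Slc2a4, the insulin-responsive glucose transporter, read 786, 742, 531 and 1107 in the control libraries and 1074, 858, 1048 and 1070 in the rosiglitazone libraries and did not pass (0.40 ± 0.15, adjusted p 0.224). Among 20 adipokines and other secreted factors 0 rose and 2 fell. Agt, angiotensinogen, read 831, 587, 563 and 1151 in the control libraries and 353, 179, 279 and 282 in the rosiglitazone libraries and fell by 1.49 ± 0.30 (adjusted p 0.0181). Vegfa, the vascular growth factor, read 904, 834, 791 and 1691 in the control libraries and 660, 373, 579 and 411 in the rosiglitazone libraries and fell by 1.02 ± 0.23 (adjusted p 0.0263). Without rosiglitazone library 4 neither passed, and Vegfa did not without rosiglitazone library 2. The groups overlapped for Adipoq (0.07 ± 0.12), leptin, Lep (-0.01 ± 0.29), resistin, Retn (-0.08 ± 0.24), and adipsin, Cfd (-0.74 ± 0.42, adjusted p 0.496). Cfd read 28917 in control library 4 against 7344 to 11318 in the other controls.

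The smallest adjusted p of all genes was that of Serpina3n, a secreted serine protease inhibitor from a cluster of similar genes, which read 2166, 1582, 1746 and 1632 in the control libraries and 499, 453, 538 and 458 in the rosiglitazone libraries. It fell by 1.86 ± 0.11 on the log2 scale (adjusted p 1.96e-09). Dpt, dermatopontin, a matrix protein that binds collagen fibrils, read 1246, 1014, 1350 and 939 in the control libraries and 295, 348, 442 and 355 in the rosiglitazone libraries and fell by 1.66 ± 0.20 (adjusted p 0.000203). Emp1, an epithelial membrane protein, read 2410, 1990, 1919 and 1464 in the control libraries and 436, 750, 503 and 602 in the rosiglitazone libraries and fell by 1.77 ± 0.28 (adjusted p 0.00279). Serpina3n, Dpt and Emp1 were the 3 of the 12 largest decreases that passed in the C57 libraries alone. C6 read 173, 221, 245 and 256 in the control libraries and 131, 32, 57 and 43 in the rosiglitazone libraries and fell by 1.94 ± 0.34 (adjusted p 0.00481).

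Folh1, a glutamate carboxypeptidase, read 78, 72, 55 and 40 in the control libraries and 15, 26, 17 and 17 in the rosiglitazone libraries and fell by 1.64 ± 0.21 (adjusted p 0.000106). Cadps, a protein of secretory vesicle release, read 101, 39, 41 and 27 in the control libraries and 5, 5, 17 and 7 in the rosiglitazone libraries and fell by 2.46 ± 0.41. The remaining 6 were Adamtsl2, a matrix glycoprotein (-2.08 ± 0.46), Prnd, a relative of the prion protein (-1.87 ± 0.39), Bpifb6 (-1.87 ± 0.39), 1100001G20Rik (-1.79 ± 0.32), Micalcl (-1.71 ± 0.34) and Disp2 (-1.63 ± 0.28). Of the 12, Adamtsl2 kept its call in 2 and Bpifb6 in 7 of the 8 fits without 1 C57 library, and the other 10 in all 8.

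**Figure D4:**
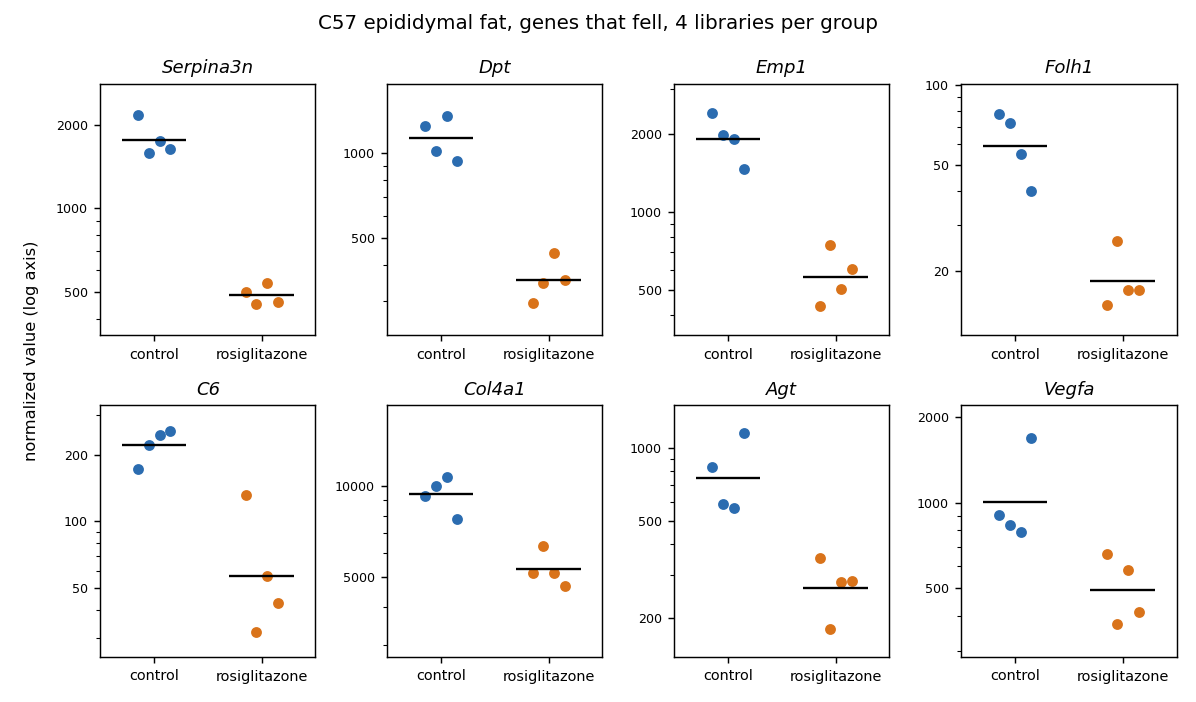
Normalized values (log axes) of 8 genes that fell, in the 4 control (blue) and 4 rosiglitazone (orange) C57 libraries; each point is a library and the bar is the mean on the log2(value + 1) scale. The groups do not overlap in any of the 8 panels. For Serpina3n, Dpt, Emp1, Folh1 and C6, among the largest decreases, this was a condition of the choice. The C6 value of rosiglitazone library 1 (131) comes closest to the controls (173 to 256).

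The extracellular matrix list had 0 increases and 4 decreases among 36 members, 30 of them with a negative fold change, and a median of -0.41. Without control library 3 that median was -0.23, with 4 decreases. Col4a1 and Col4a2, the 2 chains of the main basement membrane collagen, are encoded side by side. Col4a1 read 9311, 10046, 10750 and 7812 in the control libraries and 5176, 6358, 5176 and 4700 in the rosiglitazone libraries. Col4a2 read 5728, 5728, 5931 and 4531 in the control libraries and 3298, 3533, 3100 and 2942 in the rosiglitazone libraries. They fell by 0.82 ± 0.12 and 0.76 ± 0.10 (adjusted p 0.000683 and 0.000155), with no overlap between groups. Col5a2, a chain of fibrillar collagen V, fell by 0.77 ± 0.15 and Timp3, an inhibitor of matrix metalloproteinases, by 0.48 ± 0.12, the latter kept in 3 of the 8 fits without 1 C57 library. The interstitial collagens did not pass: Col1a1 had -0.32 ± 0.39 and Col3a1 -0.80 ± 0.28 (adjusted p 0.185), the latter with control library 3 at 10236 against 3816 to 5962 in the other controls. Thbs1, thrombospondin 1, read 3100, 2216, 2682 and 2629 in the control libraries and 995, 1520, 1313 and 870 in the rosiglitazone libraries without overlap and missed the threshold (-1.20 ± 0.34, adjusted p 0.0903).

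Markers of other cells of the fat pad moved to differing degrees, and in whole tissue fewer cells of a type and less RNA per cell cannot be told apart. Of 27 macrophage markers, 25 had a negative fold change, with a median of -0.50, which was -0.33 without rosiglitazone library 1. Their summed level was 5716 to 11216 in the control libraries and 3273 to 7636 in the rosiglitazone libraries, which overlap. Cd163, a scavenger receptor of resident macrophages, was the 1 marker that fell. It read 486, 478, 631 and 638 in the control libraries and 285, 382, 350 and 333 in the rosiglitazone libraries (-0.72 ± 0.16, adjusted p 0.0175), and its call was kept in 5 of 8 fits without 1 C57 library. The macrophage list had 0 calls without control library 3 or rosiglitazone library 1 or 4, and 3 decreases without rosiglitazone library 2. Emr1, which encodes F4/80, read 341, 216, 515 and 218 in the control libraries and 119, 332, 177 and 163 in the rosiglitazone libraries (-0.71 ± 0.30, adjusted p 0.287). Of 10 smooth muscle and pericyte markers, 9 had a negative fold change, with a median of -0.48. Rgs5, a pericyte gene, fell by 1.20 ± 0.25 (adjusted p 0.0172). Cspg4, also a pericyte gene, went the other way (0.67) and did not pass. With the value filter or with array weights the list had 1 increase. The sum of the 10 markers was 4591 to 6076 in controls and 3463 to 4264 on the drug. Endothelial markers gave 0 calls of 13 by limma (6 at an unadjusted p under 0.05), with 12 negative values and a median of -0.30. That median was -0.15 without control library 2 and -0.13 without rosiglitazone library 4. Their sum was 6189 to 9375 in controls and 4635 to 7545 on the drug. Adipose progenitor markers gave 0 calls of 16 (5 unadjusted), with sums of 4853 to 7100 and 4198 to 5357. The part these cells had in the matrix decreases was not tested.

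Control libraries 1 and 3 stood apart in marker lists. Mesothelial markers, from the lining of the fat pad, summed to 488 in control library 1 and 977 in control library 4, against 2609 to 3605 in the other controls and 1526 to 2803 on the drug. The 11 markers had a median of 0.57, which was 0.03 without control library 1, 0.36 without control library 4 and 1.00 without control library 2, with 0 calls (0 unadjusted), and no marker was at the floor in all 8 libraries. Erythroid markers summed to 3226 in control library 3, against 506 to 739 in the other controls and 273 to 610 on the drug, with a median of -1.16 (-0.59 without control library 3) and 0 calls of 7 (5 unadjusted). Hba-a1 and Hba-a2 had the same fold change (-1.569), as had Hbb-b1 and Hbb-b2 (-1.158). The reads of these close copies may be shared, so the sums and counts may hold them more than once. Without control library 1, 467 genes were called, and without control library 3, 387. Adipocyte markers summed to 202965 to 230674 in controls and 213277 to 246297 on the drug, and 2 of 12 rose, Cidec and Aqp7.

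**Figure D5:**
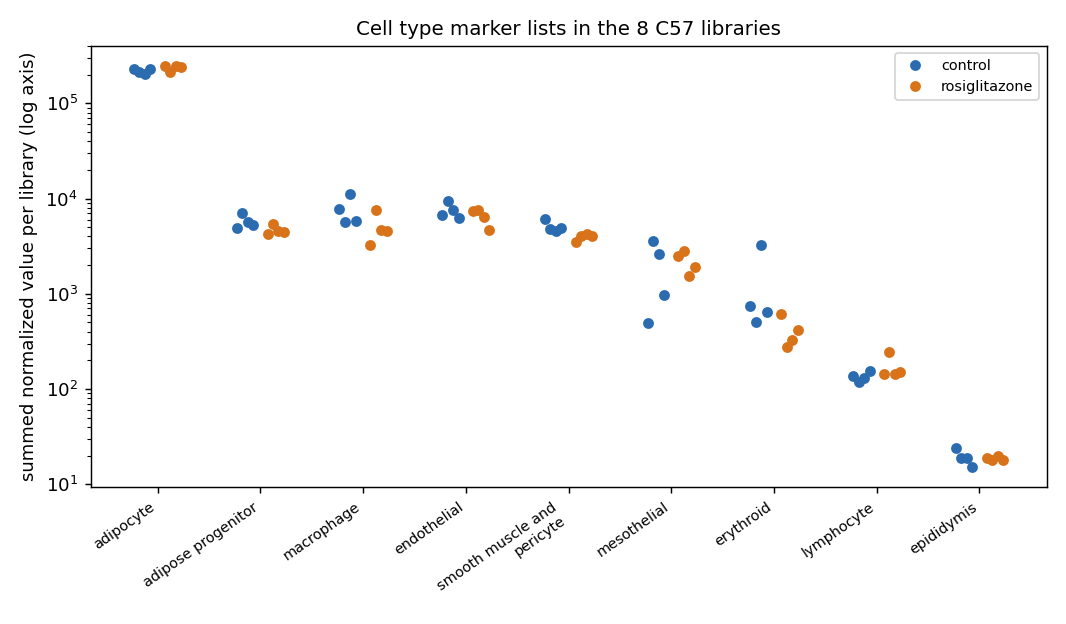
Summed normalized values (log axis) of 9 cell type marker lists in the 4 control (blue) and 4 rosiglitazone (orange) C57 libraries; each point is a library. Most lists overlap between the groups, mesothelial markers are low in 1 control library (488) and erythroid markers high in another (3226).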

How the data were processed

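RNA-seq libraries (Trizol and RNeasy, TruSeq, Genome Analyzer) were made from epididymal fat, per the labels' protocols. Per the submitters' processing notes, HOMER and mm9 were used, in roles they do not state. The deposited table holds 28644 transcript rows with a score per library, in whole numbers, none under 1. How the scores were normalized is not stated. Their near-equal totals and shared highest steps look like a nearly shared distribution, though the share of values at the floor differed between libraries. Totals in the 16 libraries were 5537632 to 5542536, so the depth is unknown, no counting interval can be given, and 16.5% to 22.7% of values in the C57 libraries were at the floor. The authors' deposited table also gives a log2 fold change and a p-value per transcript. How they were computed is not given in the labels. The deposited p was under 0.05 for 2331 genes, among them 548 of the 558 called here. Some genes that did not pass here had small deposited p-values, such as Thbs1 (1.09e-09) and Acss2 (1.39e-09).

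For each of 22869 symbols the row with the highest total was kept. Values were analysed as log2(value + 1) in 1 limma 3.58.1 fit (R 4.3.3) of 16 libraries, with 1 mean per group, trend and robust settings, two-sided tests and Benjamini-Hochberg adjustment over all genes. The fit was tested on simulated data. The members and lists were chosen with earlier results of these data known. Genes named were the 12 largest called changes each way without overlap and with a higher group mean of at least 10, up to 6 called members per list (or 2 where none was called), 22 well-known PPARG targets and fat cell genes, the 6 largest called differences between strains each way, and other list members where their role needed them. A few genes of these sets are not reported here. Folds of genes at the top of the distribution depend on shared steps. Same-numbered control and rosiglitazone libraries did not pair. Alternatives changed the pseudocount, filter, libraries, variance model, weights, scaling and row choice.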

Additional observations from a re-analysis of the deposited data

Results flagged for a closer look

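Large called differences between the 2 strains' responses, 5 with the C57 value above and 6 below, are given with their limma adjusted p and how often the call held when 1 of the 16 libraries was left out. The C57 log2 fold change was above that of 129S1/SvImJ for Orm3, an acute phase gene with close copies (2.03, adjusted p 0.0384, 7 of 16), Ptges, prostaglandin E synthase (1.88, 0.0166, 15 of 16), the sorting receptor Sorl1 (1.83, 0.00543, 16 of 16), Tlcd2 (1.78, 0.00558, 16 of 16) and the tubulin gene Tuba1a (1.70, 0.0102, 16 of 16). In C57 fat Orm3 fell by 1.36 ± 0.28, less than in 129S1/SvImJ (-3.38 ± 0.28), and Ptges (0.46 ± 0.22), Sorl1 (0.07 ± 0.18) and Tuba1a (-0.20 ± 0.19) did not pass. In 129S1/SvImJ the last 3 fell: -1.42 ± 0.22, -1.76 ± 0.18 and -1.90 ± 0.19. Tlcd2 rose by 1.02 ± 0.19 in C57 and fell in 129S1/SvImJ, at -0.76 ± 0.19.

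The C57 value was below that of 129S1/SvImJ for Ucp1 (-4.62, adjusted p 0.0157, 13 of 16), the niacin receptor gene Niacr1 (-1.77, 0.0437, 3 of 16), Lcorl (-1.42, 0.0375, 5 of 16), the creatine transporter Slc6a8 (-1.27, 0.0376, 6 of 16), Ephx2, soluble epoxide hydrolase (-1.17, 0.0243, 8 of 16) and BC090627 (-1.14, 0.0115, 16 of 16). Ephx2 read 1941, 1509, 1491 and 1557 in the control libraries and 5728, 2729, 3953 and 3361 in the rosiglitazone libraries in C57 and rose in both strains, by 1.23 ± 0.15 in C57 against 2.41 ± 0.15 in 129S1/SvImJ. Slc6a8 fell by 0.95 ± 0.17 in C57 and had 0.32 ± 0.17 in 129S1/SvImJ.

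Of 88 groups of 4 libraries checked among the named genes, 11 had a library apart from the other 3. Chance gives about 1 in 20 for continuous values. The values here are stepped and often tied whole numbers, so the 11 cannot be set against that rate. In the rosiglitazone group a library was apart for Lep (4854 against 10046 to 11028), Otop1 (51 against 125 to 136), Slc2a4 (858 against 1048 to 1074), Cadps (17 against 5 to 7) and Micalcl (9 against 2 to 3). Fabp4 (47712 against 58431) and Lpl (26525 against 32609) were each 1 library on another step of the shared distribution. Fabp3 in the rosiglitazone group (3 against 4) and, in the control group, Micalcl (14 against 13), Sptlc3 (1 against 4) and Ucp1 (3 against 4) were apart from values that are tied whole numbers.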

How the results depend on the processing

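With the 8 C57 libraries alone the counts were 73 called, 49 higher and 24 lower, and 56 of the 558 calls were kept. Without the trend and robust settings they were 370 called and 127 lower, with 7 differences between strains in place of 48. A minimum absolute log2 fold change of 1 left 107, 65 higher and 42 lower, and 29 differences. Array weights gave 84 differences and summed transcript rows 31. Leaving out 1 of the 16 libraries gave 275 to 741 called genes, 164 to 459 higher, 111 to 282 lower and 16 to 113 differences. The other pseudocounts, the value filter and median centring kept every count within 1.5 times, and no called fold change of a named gene reversed under any setting run. With the replicate block, 463 genes were called, 289 higher and 174 lower, and 39 differences, so no count moved by over 1.5 times. The numbers share no stated source. Deviations of same-numbered C57 libraries correlated at -0.2 to 0.0531, and 1 of 8 pairs over both strains correlated best with its own number. Depth is unknown, and values near the floor or at the top steps limit what can be seen.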

Other observations

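Several lists gave few or no calls in C57 fat. By limma, 0 of 20 genes of branched-chain amino acid breakdown, 0 of 19 circadian clock genes, 0 of 20 immediate early genes, 0 of 25 cell cycle genes and 0 of 23 interferon response genes passed. At an unadjusted p under 0.05 these lists held 1, 2, 3, 0 and 4 genes. Without control library 4 the clock list had 1 increase and the interferon list 2, and without rosiglitazone library 2 the immediate early list had 1 decrease. Over all genes 3170 had an unadjusted p under 0.05 and 558 were called. The clock gene Nfil3 read 13, 10, 17 and 22 in the control libraries and 25, 28, 26 and 35 in the rosiglitazone libraries (0.88 ± 0.25, adjusted p 0.0612) and Isg15, an interferon-induced modifier, read 10, 10, 8 and 6 in the control libraries and 25, 17, 15 and 16 in the rosiglitazone libraries (1.02 ± 0.32, adjusted p 0.113). Of 17 lymphocyte markers 1 rose, the T cell gene Cd3e, at 1, 1, 1 and 4 in the control libraries and 5, 8, 5 and 9 in the rosiglitazone libraries (1.58 ± 0.42, adjusted p 0.0483), near the floor and with its call kept in 1 of 8 fits without 1 C57 library.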
